A study of Mus musculus with 24 samples.

Results

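Thymus RNA of stathmin knockout mice, which lack Stmn1, was compared with thymus RNA of wild type mice. The members were the 6 arrays of the stathmin knockout and the 6 arrays of wild type, 12 of the 24 arrays of the study, taken by the genotype in the labels. The remaining 12 arrays held thymuses of the p27 knockout (without Cdkn1b) and of mice that lack both genes, and are used here only where the effect of stathmin loss is set beside the same loss in mice without p27. All mice were C57BL/6, 15 weeks old, with females and males in equal number in every genotype. Each mouse gave 1 array and no pooling of animals was described. The study asked what p27 and stathmin do in the control of cell proliferation in the animal. The sources used here do not give how the Stmn1 allele was made or which part of the gene it removes.

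Stathmin is a small cytosolic phosphoprotein that binds tubulin dimers and promotes the shortening of microtubules, the polymers that build the mitotic spindle. It is switched off by phosphorylation as cells enter mitosis, and it is abundant in dividing cells. The thymus is a tissue in which immature T cells divide and are selected on an epithelial scaffold, with vessels, macrophages and, around the lobes, fat and muscle.

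Cy5 marked the thymus RNA of each array, and Cy3 a shared reference of fibroblast RNA pooled over the genotypes. A level in this text is therefore a log2 ratio of thymus over fibroblasts, and a difference is the stathmin knockout level minus the wild type level on the log2 scale. The arrays lay on 6 slides, and each slide held 1 array of either genotype. The difference was fitted with slide as a block, and the 6 slide differences are given where they help. Genotype went with a fixed position on the slide, and these 2 cannot be told apart. In addition, the number of arrays limits the precision. Markers of the tissue were present: the median level over double-positive thymocyte genes lay between 4.77 and 5.70 in wild type and between 4.11 and 5.41 in the stathmin knockout, far above the fibroblast level of 0. Ddx3y, on the Y chromosome, and Xist, which is transcribed from the inactive X chromosome, split the slides in the same way for both genotypes. On slides 1 to 3, Ddx3y lay between -8.12 and -5.29 and Xist between 1.16 and 2.74, whereas on slides 4 to 6 Ddx3y lay between 0.09 and 1.27 and Xist between -3.69 and -1.71.

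A few arrays stood apart. The log2 ratios of stathmin knockout replicate 1 were compressed, with a median absolute deviation of 0.34, and so were those of wild type replicate 5, at 0.54, against 0.74 to 0.95 on the other 10 arrays. Wild type replicate 4 was dim, with a 99th percentile of Cy5 intensity of 56.3 kilo-units against a wild type median of 214 and a knockout median of 244. The skeletal muscle median lay between -0.43 and 1.04 on 9 arrays, and far above it in wild type replicate 5 (4.47) and stathmin knockout replicates 5 (3.71) and 6 (3.91). On slide 3 the median difference over all genes was 0.29, against -0.09 to 0.02 on the other 5 slides.

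Stmn1 itself came first, as the check of the genotypes. On probe A_52_P319161 the wild type arrays read 2.69 at the lowest, 3.20 at the median and 3.34 at the highest, and the stathmin knockout arrays -3.65, -3.18 and -1.87. The groups did not overlap, and the signal was well above background on 6 of 6 arrays in both. Stmn1 fell by 6.04 ± 0.30 (SE, n = 6 against 6) on this probe, 65.9-fold, with an adjusted p of 0.000475 in limma's moderated test across 30599 probes. On the other probe for Stmn1, A_51_P495641, which is the brighter of the pair, wild type read 3.22, 3.53 and 3.87 and the knockout 1.72, 2.02 and 2.29, again without overlap. The difference there was -1.53 ± 0.16, a 2.89-fold lower level, and did not pass after adjustment (limma adjusted p = 0.0894, and 0.00713 without the slide block). The knockout level on this probe thus stayed above the fibroblast level, while on the first it lay far below. The sources used here do not say where either probe lies relative to the deleted part of the gene, and what each of them checks is therefore not known.

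**Figure D1:**
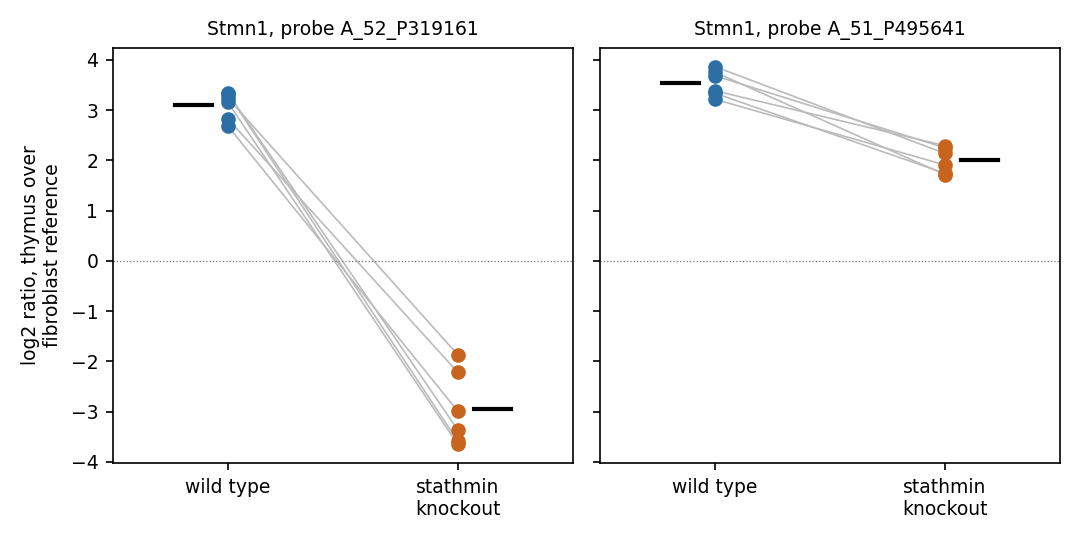
Level of Stmn1 on both of its probes (y axis, log2 ratio of thymus over the fibroblast reference) in the 6 wild type arrays (blue) and the 6 stathmin knockout arrays (orange). Grey lines join arrays of a slide and black bars are group means. On A_52_P319161 every knockout array lies at -1.87 or below and every wild type array at 2.69 or above, and on A_51_P495641 the gap is smaller but the groups do not overlap.

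That Stmn1 probe was the only one of 30599 to pass (0.00327%, limma with slide as a block). At an unadjusted p under 0.05 stood 1895 probes, 1450 higher and 445 lower in the knockout. Without slide 3 the unadjusted counts were 2373 and 2293. With the brightest probe standing for each gene, 0 of 21576 genes passed (0%), since the brightest Stmn1 probe is the one that missed the threshold. Among these genes 685 (3.17%) were higher in the knockout on 6 of 6 slides and 262 (1.21%) were lower on 6 of 6, and 41 (0.19%) had groups that did not overlap. The median difference over all genes was -0.02, with 46.2% of genes above 0. In this comparison no gene other than Stmn1 is therefore said to have risen or fallen, and all other genes are given by their values. Array weights, which let compressed or noisy arrays count less, brought Elovl3 (2.13, adjusted p = 0.0283) and the second Stmn1 probe (-1.59, adjusted p = 0.0283) past the threshold. The scanner software's own ratios did so for Ttc25 (1.90, adjusted p = 0.0436), which was named after its value was seen.

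The 8 genes that led upward, by the lowest p among those higher on 6 of 6 slides, were mostly genes of lipid metabolism. Elovl3, an enzyme that elongates very long chain fatty acids and is strongly expressed in brown fat, read -0.14, 1.11 and 1.53 (lowest, median, highest) in wild type and 2.37, 2.84 and 3.89 in the knockout. Its groups did not overlap, and its difference of 2.02 ± 0.21 had the same adjusted p as the second Stmn1 probe (limma, 0.0894). In wild type its probe was well above background on 4 of 6 arrays, against 6 of 6 in the knockout. Slc2a5, the fructose transporter GLUT5, read -1.11, -0.70 and 0.20 in wild type and 0.29, 1.32 and 1.90 in the knockout, also without overlap, a difference of 1.72 ± 0.26. Agpat2, which makes phosphatidic acid on the way to triglycerides, differed by 1.77 ± 0.28 and on a second probe by 1.81. Its wild type arrays reached 2.39 and its lowest knockout array was at 1.73, so the groups overlapped.

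Fabp4, the fatty acid carrier of adipocytes, read 3.79, 5.16 and 7.19 in wild type and 6.10, 7.24 and 8.26 in the knockout. Its difference of 2.00 ± 0.32 was accompanied by 1.68 and 1.52 on its other probes. Lpl, the lipase that frees fatty acids from circulating lipoproteins, differed by 1.66 ± 0.27 and Acacb, which makes the malonyl-CoA that restrains fatty acid import into mitochondria, by 1.41 ± 0.21. Maob, a mitochondrial amine oxidase, differed by 1.38 ± 0.21 and Hp, the haemoglobin-binding plasma protein haptoglobin, by 1.08 ± 0.15. The slide differences of Hp lay closest together among these 8 genes, from 0.83 to 1.50, while those of Fabp4 spread from 0.79 to 3.12. Each of the 7 genes after Elovl3 had an adjusted p of 0.286 in limma.

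Downward, Fgf13 led after Stmn1. Its product is an intracellular member of the fibroblast growth factor family that binds sodium channels and, in neurons of mouse, stabilises microtubules. Wild type read 0.03, 0.60 and 1.15 and the knockout -1.20, -0.67 and -0.43 without overlap, a difference of -1.33 ± 0.21, although a dimmer probe of the gene differed by -0.30. Tfpi, an inhibitor of the start of blood clotting, read -3.87, -3.67 and -3.36 in wild type and -4.88, -4.76 and -4.15 in the knockout (-0.98 ± 0.16). Both groups lay below the fibroblast level and did not overlap, and the gene's other 3 probes differed by -0.64, -0.41 and -0.10. Tubb5, the main beta-tubulin of dividing and immune cells, read 1.21, 1.31 and 1.66 in wild type and 0.47, 0.68 and 0.91 in the knockout. These groups did not overlap, and the difference was -0.69 ± 0.14 on its brightest probe and -0.75 on the other.

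Rpl11, a protein of the large ribosomal subunit, read 1.51, 1.88 and 2.27 in wild type and 0.38, 0.91 and 1.33 in the knockout, a difference of -1.0 ± 0.21 without overlap, and -0.87 on a second probe. Tox3, a chromatin protein of the HMG-box family, differed by -0.99 ± 0.18. Sh3bgrl3, a small protein of the thioredoxin fold, differed by -0.68 ± 0.14 and Ctsg, the neutrophil protease cathepsin G, by -0.65 ± 0.13. For these last 3 genes the groups overlapped. The adjusted p of the 7 genes below Stmn1 lay between 0.286 and 0.369 in limma. Clone AK032599, named after its values were seen, had the largest difference among the named transcripts other than Stmn1, with 0.55, 1.06 and 2.35 in wild type and -2.30, -1.13 and -0.49 in the knockout (-2.38 ± 0.35, adjusted p = 0.286).

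**Figure D2:**
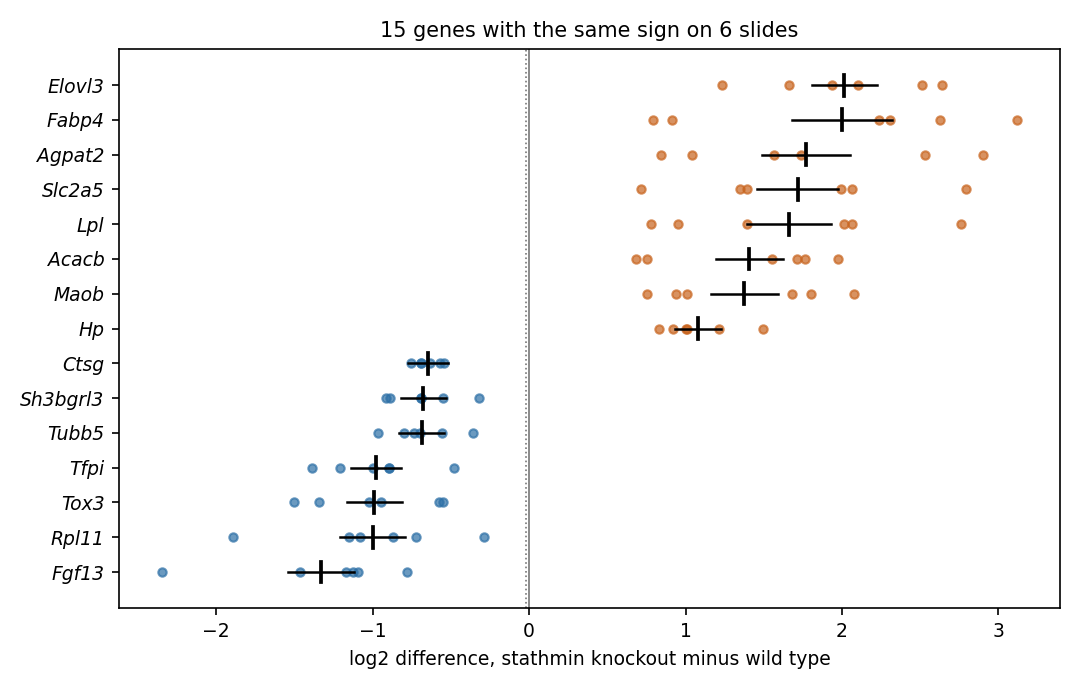
Difference between stathmin knockout and wild type (x axis, log2) for the 15 genes that led in either direction. Points are the 6 slides, black ticks the fitted difference and black lines ± its SE, and the dotted line is the median over all genes, -0.02. Every point lies on the side of its gene's fitted difference, the widest spread being that of Fabp4, from 0.79 to 3.12.

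The p27 and double knockout mice gave an independent set of animals in which to look at the same genes, because both groups lack p27 and only the double knockout also lacks Stmn1. These mice shared the slides with the 12 arrays above. That comparison was itself marked by an uneven pair of p27 knockout arrays, replicates 5 and 6. It called 5874 of 30599 probes (19.2%), and 8973 (29.3%) without those arrays, so a call there is common. With 1 probe per gene, 7.28% of genes were called higher and 10.6% lower in the double knockout. Stmn1 fell by 5.64 ± 0.32 on A_52_P319161 (limma adjusted p = 0.00483) and differed by -0.93 ± 0.59 on A_51_P495641 (0.271, and 0.0067 without p27 knockout replicates 5 and 6).

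All 8 genes that led upward and all 7 that led downward had the same sign in these mice, with and without the uneven arrays. Of the upper 8 genes, 3 passed, and they were the same in either form of the comparison. Agpat2 rose by 2.45 ± 0.55 (limma adjusted p = 0.0271), Slc2a5 by 2.01 ± 0.43 (0.0243) and Elovl3 by 1.95 ± 0.46 (0.0292). The Elovl3 probe was well above background on 2 of 6 p27 knockout arrays and on 6 of 6 double knockout arrays. Of the lower 7 genes, 5 passed in limma: Rpl11 fell by 1.16 ± 0.23, Tfpi by 1.46 ± 0.30, Sh3bgrl3 by 0.80 ± 0.20, Fgf13 by 0.91 ± 0.24 and Tox3 by 1.30 ± 0.36, with adjusted p between 0.0217 and 0.0418. Tubb5 differed by -0.34 ± 0.22 and passed only without the uneven arrays (-0.53, adjusted p = 0.0477). Hp and Maob, among the leading genes of the first comparison, differed here by 0.05 ± 0.43 and 0.36 ± 0.50. AK032599 fell by 3.51 ± 0.39 (adjusted p = 0.0166). Whether stathmin loss acted differently with and without p27 was tested as an interaction over all 24 arrays, and 0 of 30599 probes passed (limma, 6699 at an unadjusted p under 0.05). Without p27 knockout replicates 5 and 6 it was also 0, with 4008 at an unadjusted p under 0.05.

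**Figure D3:**
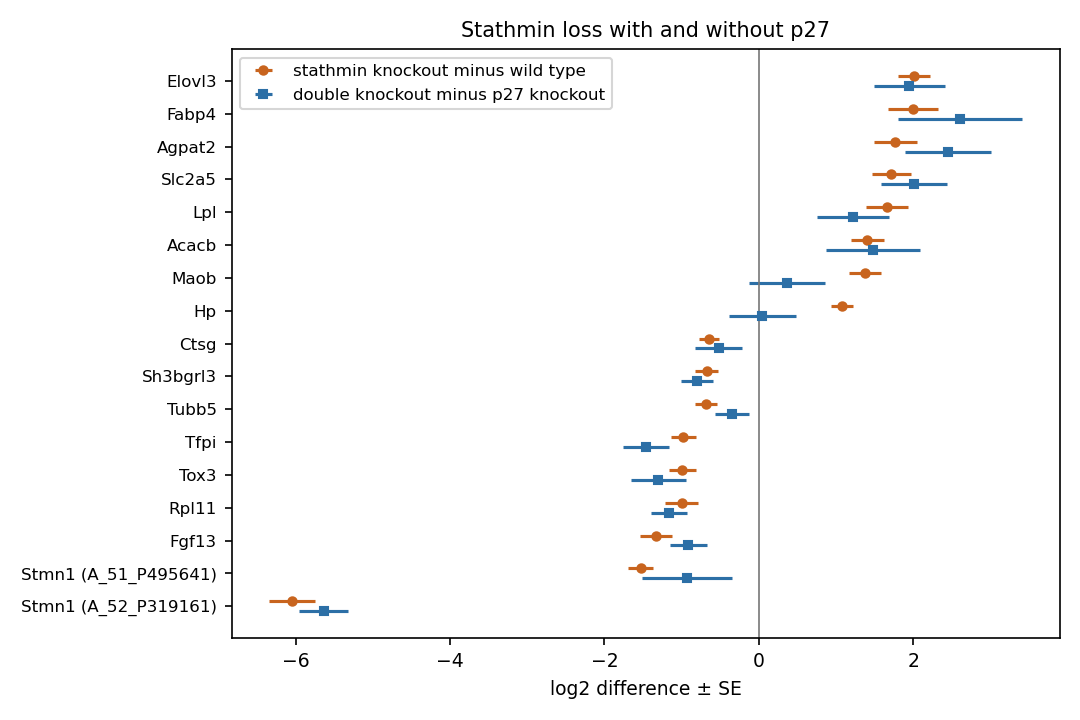
Difference between mice without and with Stmn1 (x axis, log2, ± SE) for both Stmn1 probes and the 15 leading genes, as stathmin knockout minus wild type (orange) and as double knockout minus p27 knockout (blue), 6 against 6 arrays in each. All genes lie on the same side of 0 in both, Hp (0.05), Tubb5 (-0.34) and Maob (0.36) closest to 0 in the second.

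Tubulins, which stathmin binds, lay mostly below 0. Of 16 measured alpha-, beta-, gamma-, delta- and epsilon-tubulins, 12 were below 0 and the median was -0.10, against -0.02 over all genes. The differences ran from -0.69 to 0.67. At an unadjusted p under 0.05 in limma 5 were lower and 1 higher, where 1.37% and 5.36% of all genes were. The list median was below 0 on 6 of 6 slides, from -0.31 to -0.08, and 4 genes were lower on 6 of 6 slides, where 1.21% of all genes were. Besides Tubb5 these were Tuba3a (-0.60 ± 0.19), Tubb4a (-0.56 ± 0.20) and Tuba4a (-0.48 ± 0.14). Tuba4a, an alpha-tubulin, read 0.81, 1.03 and 1.32 in wild type and 0.31, 0.56 and 0.66 in the knockout without overlap. Its dimmer probes differed by -0.27 and -0.13 and the second Tuba3a probe by -0.07, each lower on 3 of 6 slides. None of the list passed in limma, and Tuba1a, whose wild type median was -2.82 and knockout median -2.87, differed by -0.09 ± 0.14. In the double against the p27 knockout the median over tubulins was -0.14, against -0.10 over all genes, and above 0 on 2 of 6 slides. It was -0.06 without the uneven arrays.

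The rest of the microtubule machinery showed no common direction. The relatives of stathmin differed by 0.24 ± 0.31 (Stmn2), 0.45 ± 0.35 (Stmn3) and -0.30 ± 0.65 (Stmn4). Among 31 microtubule-associated and severing proteins 16 were above 0, with a median of 0.02 that was -0.05 after scaling between arrays. Map2, which bundles microtubules in dendrites, was higher on 6 of 6 slides (0.53 ± 0.19), as was the transport motor Kif1b (0.54 ± 0.19) among 22 kinesins. The median of the kinesins was -0.06, and 0.04 after scaling.

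Genes of cell division gave no call. Over the 67 genes of DNA replication and of mitosis the median difference was -0.03, 40 were below 0 and 0 passed in limma, with 0 at an unadjusted p under 0.05 in either direction. The G1/S list of 37 genes had a median of -0.03 and the G2/M list of 30 a median of -0.06. After scaling between arrays both turned above 0, to 0.09 and 0.12, and without slide 1 in addition they were -0.15 and -0.19. Mcm5, a subunit of the replicative helicase, was lower on 6 of 6 slides by 0.19 ± 0.13. The differences of G2/M genes lay between -0.17 and 0.26, and those of the mitotic kinases Aurka and Nek2 were -0.14 ± 0.15 and -0.13 ± 0.15. Cdkn1b, which encodes p27, differed by -0.07 ± 0.18, over 5 slides because its spot was marked as an outlier on wild type replicate 1. The median over the 8 CDK inhibitors was -0.03. Of 20 p53 targets the apoptosis genes Bbc3 (0.58 ± 0.16, higher on 6 of 6 slides) and Pmaip1 (0.69 ± 0.25) stood highest, while Cdkn1a, the p53-induced CDK inhibitor, differed by -0.33 ± 0.25.

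The broadest pattern was in mitochondrial and lipid genes. Of 76 subunits of oxidative phosphorylation in 5 complexes, 73 were above 0 with a median of 0.43, and 31 (40.8%) were higher on 6 of 6 slides, where 3.17% of all genes were. The number at an unadjusted p under 0.05 was 43 higher and 0 lower, where 5.36% of all genes were higher and 1.37% lower, but 0 passed in limma after adjustment. Complex III, which passes electrons from ubiquinol to cytochrome c, had the highest median of the 5, at 0.63, and 7 of its 9 genes were higher on 6 of 6 slides. Its Uqcrc2 read -0.58, -0.23 and -0.08 in wild type and -0.08, 0.10 and 0.37 in the knockout, with no overlap (0.38 ± 0.15), and Uqcr11 and Uqcrq differed by 1.04 ± 0.26 and 0.90 ± 0.22. A second, much dimmer Uqcrq probe went the other way, by -0.24, and was lower on 6 of 6 slides. Complex IV, the terminal oxidase, had a median of 0.58 with Cox6c at 0.87 ± 0.19. The list of complex I, the NADH dehydrogenase, had a median of 0.43 with 37 of 37 genes above 0. Its Ndufc1 differed by 0.81 ± 0.20, and by 0.53 on a dimmer probe. Ndufa4 (0.95 ± 0.19) is in that list by its name, although its product is now counted with complex IV. The ATP synthase (0.35, Atp5o 0.57 ± 0.14) and the 4 genes of complex II (0.24, Sdhd 0.33 ± 0.15) were lower in the order. With the Cy5 channel alone the medians were 0.10 for the ATP synthase, 0.28 for complexes I and IV and 0.46 for complex III. The medians of complexes I and III were above 0 on 6 of 6 slides, and that of complex IV was -0.18 on slide 3. The median over all genes on slide 3 was 0.29. Complex I (0.24) and the ATP synthase (0.01) lay below it there, and complex III (0.34) above it.

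Upstream of the chain, 17 of 17 genes of the TCA cycle and of pyruvate dehydrogenase were above 0 (median 0.38), among them Idh3g (0.68 ± 0.19) and Mdh2 (0.55 ± 0.17). Glycolysis, in the cytosol, had a median of 0.17 with 1 of 16 genes, Pfkl (0.41 ± 0.15), higher on 6 of 6 slides. Mitochondrial fatty acid oxidation had a median of 0.82, and 19 of 19 genes were above 0. Its 9 genes higher on 6 of 6 slides included Acsl1 (1.63 ± 0.33), which activates long chain fatty acids, Cpt2 (1.13 ± 0.27), which completes their import, Acadvl (1.15 ± 0.24), which starts their oxidation, and Decr1 (1.01 ± 0.19), which handles unsaturated ones. None of these genes passed in limma.

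Synthesis and storage of fat stood equally high. Of 18 genes of fatty acid and triglyceride synthesis 17 were above 0 (median 0.83) and 10 were higher on 6 of 6 slides. Fasn, the fatty acid synthase, read -0.10, 0.87 and 2.88 in wild type and 2.00, 3.59 and 4.89 in the knockout, a difference of 2.29 ± 0.42. Scd1, which desaturates fatty acids, read 2.02, 3.69 and 5.43 against 4.96, 5.64 and 7.32 (2.09 ± 0.35). In both genes the highest wild type array exceeded the lowest knockout array. Elovl6 (1.50 ± 0.25), Dgat2 (1.57 ± 0.33), Me1 (1.50 ± 0.30) and Acaca (1.27 ± 0.23) followed. Lipid droplet and lipolysis genes had a median of 1.02 (1.59 after scaling between arrays) with 14 of 14 above 0 and differences up to 1.64. Among them were Plin5 (1.56 ± 0.29), a droplet coat protein, and Pnpla2 (1.42 ± 0.26), the first triglyceride lipase. Pnpla2 was higher on 5 slides and lower on 0, and its dimmer probe differed by 0.89.

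**Figure D4:**
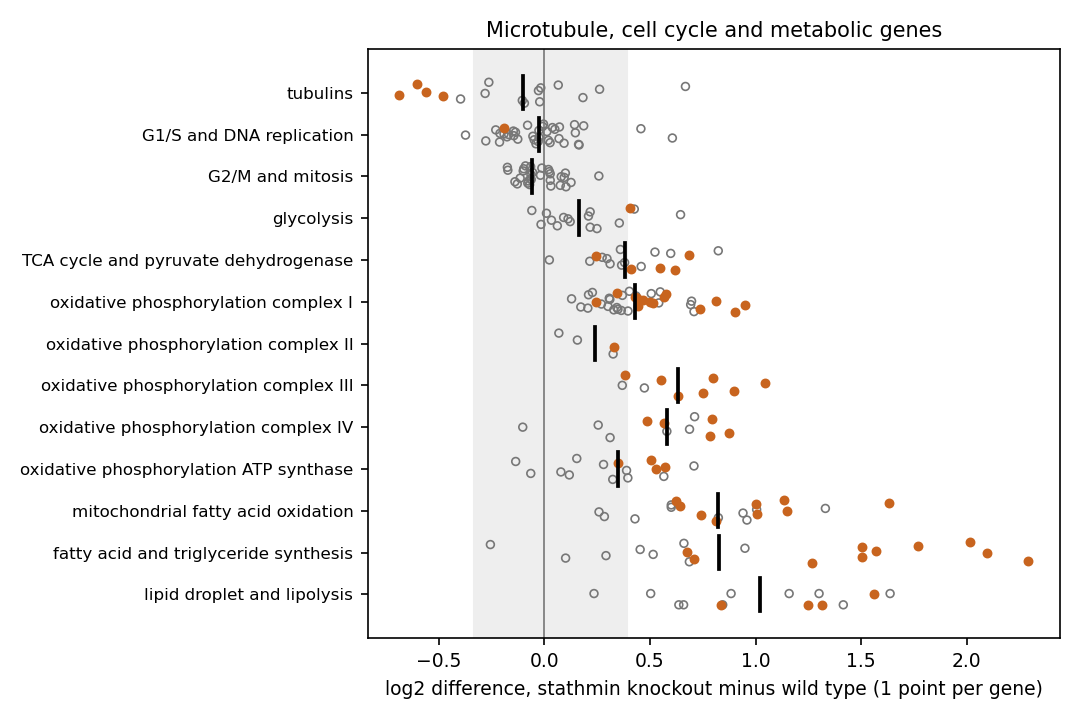
Difference between stathmin knockout and wild type (x axis, log2) for each gene of 13 lists. Filled points are genes with the same sign on 6 of 6 slides, open points the others, black ticks list medians, and the grey band holds the middle of all genes, from -0.33 (10th percentile) to 0.39 (90th). Cell cycle lists sit around 0, tubulins run from -0.69 to 0.67, and the lipid lists have medians of 0.82, 0.83 and 1.02.

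Fat cell markers differed in the same direction, but their lists share genes with the lipid lists. Scd1, Acsl1, Pnpla2, Elovl3 and Cidea are among the shared ones, so part of this agreement comes from the same genes. In bulk tissue more cells of a type and more RNA per cell cannot be told apart. The median level over 23 white adipocyte markers was 2.02, 3.02 and 3.67 (lowest, median, highest) in wild type and 3.36, 4.28 and 4.57 in the knockout. Of these markers 22 were above 0, 6 were higher on 6 of 6 slides and 18 had an unadjusted p under 0.05, with a median difference of 0.91. By slide the median was -0.24, 1.38, 1.58, 0.95, 0.69 and 1.46 for slides 1 to 6, and 1.25 without slide 1, the slide of the compressed knockout array. Scaling between arrays gave 1.64, and scaling without slide 1 gave 0.69. Adipoq, the adipocyte hormone adiponectin, read 4.64, 5.45 and 5.74 in wild type and 4.92, 5.90 and 6.57 in the knockout (0.49 ± 0.28). Lep, the hormone leptin, differed by 0.44 ± 0.33. Both hormones differed by less than the list median of 0.91, whereas Fabp4 and Scd1, also of this list, differed by 2.00 and 2.09.

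Brown adipocyte markers had a median of 0.80 (1.22 scaled, 0.47 scaled without slide 1), with 17 of 17 above 0. Ucp1, the uncoupling protein that defines brown fat, read 4.59, 5.35 and 5.82 in wild type and 5.00, 5.89 and 6.22 in the knockout (0.43 ± 0.29), so it was present at high level in every thymus. Cox7a1 and Cox8b, subunit isoforms of complex IV in brown fat and muscle, differed by 1.03 ± 0.30 and 0.80 ± 0.29, and Cidea, a lipid droplet protein, by 0.84 ± 0.22. On slide 1, which held the compressed knockout array, the white and brown adipocyte medians were -0.24 and -0.05. Complex I stood there at 0.34, complex III at 0.59 and fatty acid synthesis at 0.36. The knockout ratios of that slide were compressed, so these medians may not be on a like scale, which was not tested. In wild type on that slide white adipocyte markers read 3.67 and complex I 0.43. On slide 2, with fat medians of 1.38 and 1.25, complexes I and III stood at 0.96 and 1.13. On slide 3 the fat medians were 1.58 and 0.98, and complexes I and III stood at 0.24 and 0.34. The median over all genes there was 0.29. The part of fat content in the other lists was not tested. Over the 81 genes of the 5 lipid and fat cell lists, 79 were above 0, 29 (35.8%) were higher on 6 of 6 slides and 61 had an unadjusted p under 0.05.

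**Figure D5:**
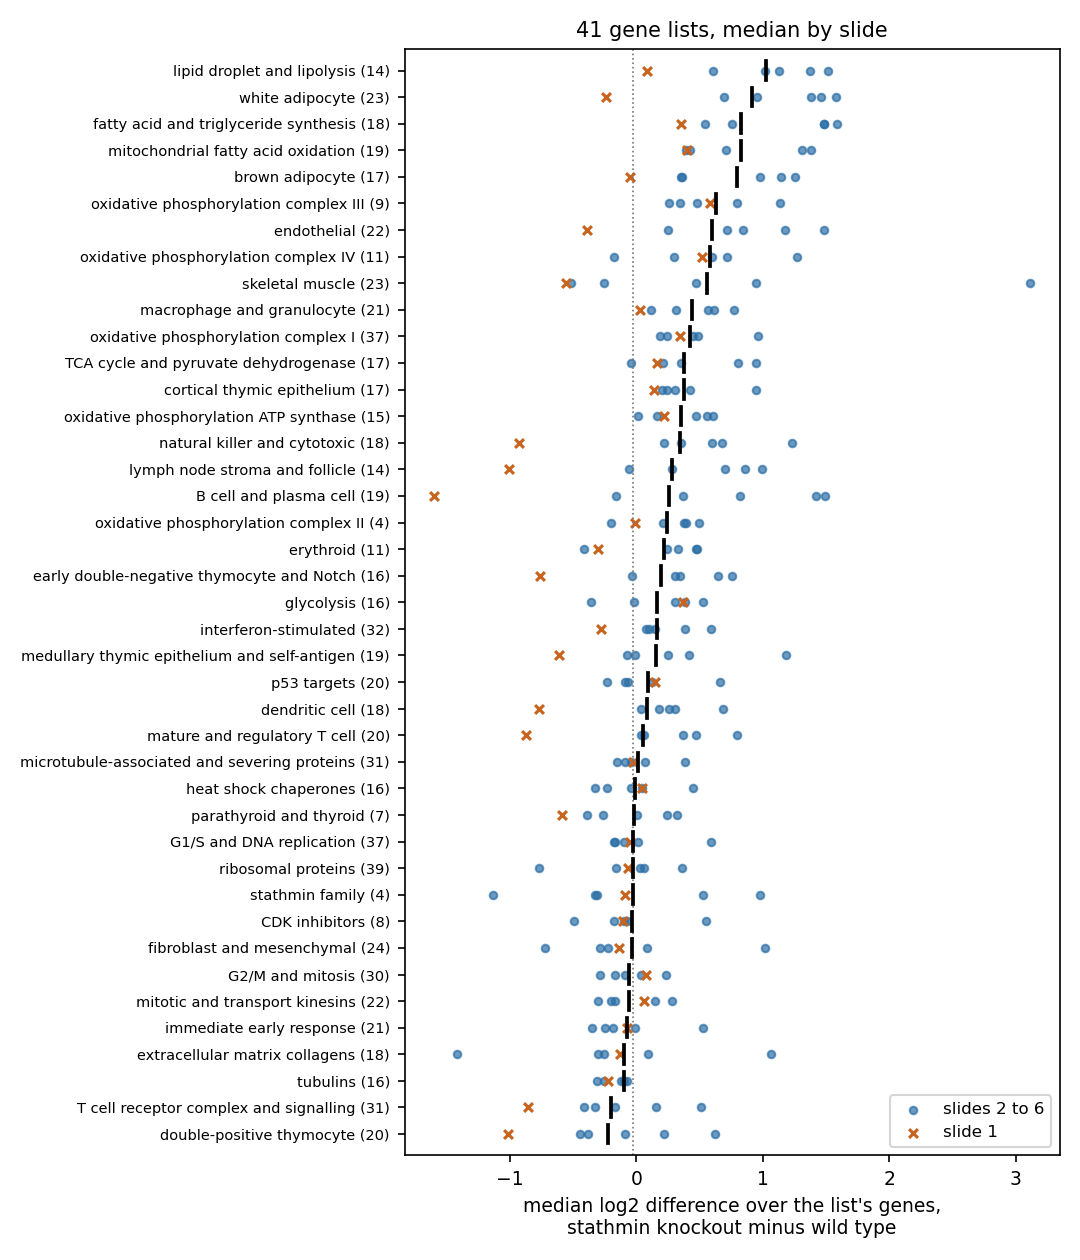
Median difference over the genes of each of 41 lists (x axis, log2, stathmin knockout minus wild type). Orange crosses are slide 1, blue points slides 2 to 6, black ticks the fitted list median, the dotted line the median of all genes, and the number of genes is in parentheses. The 5 lipid and adipocyte lists lie at the top, muscle spreads from -0.56 to 3.11 between slides, and slide 1 is lowest for most lymphocyte lists.

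Vessel and myeloid lists also had medians above that of all genes. Endothelial genes had a median of 0.60, with 19 of 22 above 0 and 10 at an unadjusted p under 0.05, and on slide 1 it was -0.39. Vwf, the platelet-binding clotting factor of endothelium, read 0.73, 1.58 and 2.40 in wild type and 1.77, 2.84 and 3.93 in the knockout (1.11 ± 0.28), and Ptprb, a phosphatase of endothelial junctions, differed by 1.00 ± 0.24. Both were higher on 6 of 6 slides, as was the TGF-beta co-receptor Eng (0.57 ± 0.20). In macrophage and granulocyte genes the median was 0.44. The macrophage genes Csf1r (0.67 ± 0.17) and Mrc1 (0.44 ± 0.21) and the lysozyme genes Lyz1 (0.80 ± 0.31) and Lyz2 (0.67 ± 0.26) were higher on 6 of 6 slides. Dimmer Csf1r probes differed by 0.63 and, on the dimmest, by 0.15. The neutrophil granule gene Mpo went the other way on 6 of 6 slides (-0.75 ± 0.20), as did Ctsg, which is also a granule gene. Skeletal muscle genes had a median of 0.56, but without slide 6 it was 0.03, and 0 of 23 genes were higher on 6 of 6 slides. Fibroblast and collagen lists had medians of -0.03 and -0.09. Scaling between arrays gave -0.43 and -0.58, and scaling without slide 1 gave 0.51 and 0.43.

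Thymic epithelial lists lay above 0. Cortical epithelial genes had a median of 0.38 with 16 of 17 above 0, and the list median was above 0 on 6 of 6 slides. It was 0.77 after scaling between arrays and 0.15 after scaling without slide 1. Enpep, an aminopeptidase of cortical epithelium, read 2.54, 2.79 and 3.47 in wild type and 3.08, 3.46 and 4.33 in the knockout (0.68 ± 0.18). Cxcl12, the chemokine that holds thymocyte precursors, Kitl and Pax1 were likewise higher on 6 of 6 slides, by 0.48, 0.41 and 0.38. Other cortical genes were near 0 and of mixed sign over the slides: Psmb11, the thymoproteasome subunit, differed by -0.02 ± 0.26, the protease Prss16 by 0.06 ± 0.21 and the keratin Krt8 by 0.03 ± 0.24. The master regulator of thymic epithelium, Foxn1, differed by 0.31 ± 0.27. Medullary genes had a median of 0.16 with 14 of 19 above 0 (0.35 after scaling, 0.19 after scaling without slide 1), and -0.61 on slide 1 and 1.18 on slide 4.

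Thymocytes are the bulk of the organ, and their lists did not share a sign. Double-positive thymocyte markers had a median of -0.22 with 17 of 20 below 0, and T cell receptor genes a median of -0.20 with 27 of 31 below 0. Both depended on slide 1 and on scaling. On slide 1, with the compressed knockout array, the medians were -1.02 and -0.86, and without it -0.07 and -0.12. After scaling between arrays they were 0.36 and 0.18, and after scaling without slide 1 -0.78 and -0.53. That last setting kept wild type replicate 5, which was also compressed, and the cause of these shifts was not tested. No gene of either list was lower on 6 of 6 slides. Rag1, of the recombinase that builds T cell receptor genes, differed by -0.29 ± 0.29, Cd4 by -0.40 ± 0.34 and Cd8a by -0.38 ± 0.24. Early double-negative thymocyte genes had a median of 0.20 with 13 of 16 above 0. Their list and those of mature T cells (0.06), natural killer cells (0.35), B cells (0.26) and dendritic cells (0.09) had 0 genes of constant sign over 6 slides. Immediate early genes, which follow receptor signalling, had a median of -0.07, and Egr1, induced by T cell receptor signals, was lower on 6 of 6 slides (-0.52 ± 0.16). Ifi27 (1.04 ± 0.21), Ifih1 (0.45 ± 0.16) and Oasl2 (0.41 ± 0.15) were higher on 6 of 6 slides among 32 interferon-stimulated genes with a median of 0.16.

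Genes beside Stmn1 on chromosome 4 were examined as neighbours of the targeted locus. Among the 10 measured genes on either side of Stmn1 in gene order, 0 of 20 passed in limma. On 6 of 6 slides 4 were higher and 1 was lower, where 3.17% and 1.21% of all genes were. The higher ones were Ubxn11 (1.54 ± 0.41), Pdik1l (0.84 ± 0.20), Paqr7 (0.71 ± 0.16) and Mtfr1l (0.40 ± 0.15), and the lower one was Sh3bgrl3, 9 places away. In the double against the p27 knockout Ubxn11 and Paqr7 differed by 2.86 and 0.92, and Sh3bgrl3 by -0.80. Pdik1l (-0.05) and Mtfr1l (-0.22) had the opposite sign there. Of the other leading genes, Rpl11 lies 30 places and Slc2a5 180 places from Stmn1 on the same chromosome, and the remaining 12 lie on other chromosomes.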

How the data were processed

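Thymus RNA was amplified and labelled with Cy5 by amino-allyl coupling, per the labels' protocols, against Cy3-labelled fibroblast RNA in the same orientation on every array. Intensity of spots and their local background, in both channels, came from Agilent Feature Extraction 9.1.3.1 as deposited, with no background subtracted, per the file headers. The deposited log10 ratios in the same files (Cy5 over Cy3) were spatially detrended and dye-normalized by the scanner software, per the file headers. The authors' table of log2 values, 24 columns, served as an alternative, and the sources used here do not give how it was made. On these 12 arrays it correlated by at least 0.98 with the mean brightness of both channels and by at most 0.032, in size, with the log2 ratio, so how it was centred and what direction it has is not known. Medians of its columns from replicate 1 to 6 stood at 9.29, 9.36, 9.33, 8.66, 9.75 and 9.24 in wild type and 10.6, 9.46, 8.88, 9.10, 9.18 and 9.20 in the stathmin knockout.

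The log2 ratios came from limma 3.58.1 (R 4.3.3, with version 1.17.8 of data.table as the reader): normexp background correction (offset 50), loess within each array with control spots at weight 0, outlier-marked spots left out, spots of a probe averaged, no scaling between arrays. Of 45018 spots per array, 41174 probes were gene probes. Symbols of 22951 came through the gene table of assembly GRCm38.p6, which also gave the order of genes, and 18223 kept the file's name. Kept were 30599 probes with Cy5 well above background on 6 or more of the 12 arrays, the brightest standing for its gene (21576 genes). Probes disagreed in sign in 2825 of the 6547 genes that had more than 1. Between 65.1% and 87.7% of Cy5 spots were well above background per array, and 0 pairs of arrays were identical.

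limma's moderated test was run on these 12 arrays with slide as a fixed block, Benjamini-Hochberg adjusted over all probes (threshold 0.05), and all adjusted p of genes are limma's. The scripts were tested on simulated data. Slide and replicate number coincide. Residuals of arrays on the same slide correlated by -0.22 to 0.62, and 1 of the 6 slides was below 0.1. The best-correlated partner lay on the same slide only for slides 2 and 5. The block follows the shared slide by design, and these correlations cannot tell slide from replicate number.

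Members and lists were chosen with earlier results of these data known. Genes are named by a rule: Stmn1 on every probe, passing probes of constant sign, up to 8 genes each way of lowest p among genes of constant sign over 6 slides (leaving out sex-linked, predicted and clone names), for each list 3 members of lowest p in its direction, and passing neighbours of Stmn1. Further list members, neighbours of constant sign, Ddx3y, Xist, Ttc25 and AK032599 were named after their values were seen. Some genes that the rule names are not reported here. Lists held 839 entries, 801 of them measured, in 42 lists. Alternatives were no background correction, the scanner software's ratios, the Cy5 channel alone, the deposited table, no block, other filters on dim probes, 24 arrays for the spread, array weights, scaling between arrays, a brightness covariate and leaving out slides.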

Additional observations from a re-analysis of the deposited data

Results flagged for a closer look

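In groups of 6 arrays, the highest or lowest array was set apart where its gap to the nearest other array exceeded Dixon's critical share of the group's range for 6 arrays. Chance sets apart about 1 group in 20. Maob in stathmin knockout replicate 4 was lowest, at -1.91, with the next array at -0.49. The median level of the tubulins was lowest in wild type replicate 6, at 0.16, and in stathmin knockout replicate 3, at -0.29. The CDK inhibitors were lowest in wild type replicate 1 and in knockout replicate 5, at -2.95 in both. In wild type replicate 1 their median leaves out Cdkn1b, whose spot was marked as an outlier. Taken gene by gene, the median difference of that list was -0.10 on slide 1 and -0.07 on slide 5. The p53 targets were highest in wild type replicate 6, at -0.30. In the knockout, natural killer genes were lowest in replicate 1, at 1.46 against 2.63 in the next array, and erythroid genes likewise, at 0.12 against 0.72. Skeletal muscle genes were highest in wild type replicate 5, at 4.47 against 0.79 in the next array.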

How the results depend on the processing

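Counts of called probes ranged from 0 to 3. The count was 1 under 15 alternatives, each of the 6 left-out slides included (1 to 1). It was 2 with the scanner software's ratios and without the replicate block, 3 with array weights, and 0 after scaling between arrays, after scaling without slide 1, and with the brightest probe per gene (1038, 1250 and 1156 higher and 281, 454 and 296 lower, in that order, at an unadjusted p under 0.05 in limma). The last leaves out the Stmn1 probe that passed. At an unadjusted p under 0.05 the counts without slide 3 were 2373 higher and 2293 lower, against 1450 and 445. Stmn1 on A_52_P319161 passed in all alternatives except scaling (-7.07, adjusted p = 0.212) and scaling without slide 1 (-6.50, 0.0767), and its range over left-out slides was -6.24 to -5.87 (-2.43 in the deposited table). On A_51_P495641 it passed without the replicate block (-1.53, adjusted p = 0.00713) and with array weights (-1.59, 0.0283), read 0.11 in the deposited table, and ranged from -1.62 to -1.43 over left-out slides. The replicate number in place of slide as the replicate block gave the same 1 call and the same -6.04, since both coincide. The interaction count stayed at 0 without p27 knockout replicates 5 and 6. Leaving out slides 1 and 5, and scaling without slide 1, were chosen after seeing the data.

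Of the changes of 126 named genes under 20 alternatives, 2446 kept their sign and side of the threshold, 1 passed (Elovl3 with array weights) and 64 turned sign, all of them values that did not pass. Of the list medians 828 moved by less than the spread between slides and 11 by more, 6 of these after scaling, where white adipocyte markers stood at 1.64 and double-positive thymocyte markers at 0.36. The deposited table, which follows brightness and has a median change of 0.16 over all genes, turned Fabp4 -0.41, Rpl11 0.20, Sh3bgrl3 0.049, Tubb5 0.067, Acta2 0.092, Atp5b -0.014, Aurka 0.11, Bcl11b 0.14, Ccnd2 0.13, Cdkn1a 0.060, Cdkn2a 0.13, Cdkn2b 0.14, Col1a2 0.0028, Col3a1 0.19, Col5a2 0.061, Ctsl -0.055, Dnajb1 0.14, Dnajb4 0.21, Ets2 0.060, Kif22 0.11, Kif4 0.15, Kif5b 0.15, Lck 0.030, Mcm5 0.21, Mybl2 0.11, Nek2 0.17, Rps3 0.082, Sos1 0.066, Stmn4 0.037, Thy1 0.094 and Tuba4a 0.055. Scaling between arrays turned Bcl11b 0.22, E2f2 0.19, Ets2 0.053, Lck 0.45, Mcm5 0.024, Mybl2 0.052, Nek2 0.072, Satb1 0.50, Thy1 0.18 and Zmat3 -0.044, and scaling without slide 1 turned Ccnd2 0.032, Cdkn1a 0.064, Cdkn2a 0.30, Cdkn2b 0.43, Col1a2 0.0013, Col3a1 0.20, Col5a2 0.35 and Dnajb4 0.047. The brightness covariate turned Acta2 0.10, Cdkn2a 0.23, Cdkn2b 0.23, Col1a2 0.031, Col3a1 0.14, Col5a2 0.098, Stmn4 0.63 and Tshr 0.045. Without slide 4, Cdkn2a 0.12, Cdkn2b 0.087 and Stmn4 0.40 turned sign. Tshr turned without background correction (0.0036), with the scanner software's ratios (0.076), and without slide 2 (0.024) or 6 (0.074). Over the 6 left-out slides Cdkn2a ran from -0.35 to 0.12, Cdkn2b ran from -0.41 to 0.087, Stmn4 ran from -0.86 to 0.40 and Tshr from -0.095 to 0.074. The cause was not tested. Low levels are limited by signal over background, as for Elovl3 in wild type.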
